A study of Mus musculus with 6 samples.

Results

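The proteasome subunit genes of sorted mouse LSK cells were compared between control and Myh9-deficient libraries. The genes were chosen by name, as the protein-coding genes of the deposited table whose symbol starts with Psma to Psmg followed by a digit. The rule does not use their values, but it was set with earlier results of these data known. The rule found 50 genes of 54532 in the table. LSK cells are the lineage-negative, Sca1-positive and c-Kit-positive fraction of bone marrow (BM) that holds hematopoietic stem and progenitor cells. The libraries form 2 groups of 3, CTRL (genotype Myh9fl/fl;no cre, littermates) and cKO (genotype Myh9fl/fl;Mx1-cre), all on the C57BL/6 strain. Mice were genotyped at 4 to 5 weeks, and their age at sorting is not in the labels. Both groups carry the floxed Myh9 alleles and both were given poly I:C at 5 mg/kg, in 2 doses by the labels and 3 by the study's methods, and LSK cells were sorted on day 4 after the first injection. Poly I:C induces interferon, which drives the Mx1 promoter, and this promoter is not limited to hematopoietic cells. The control mice lacked cre, so the presence of cre and the loss of Myh9 cannot be told apart. Each set held 100000 sorted cells, and the number of mice behind a set is not stated, so that the spread between libraries may be partly technical.

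The proteasome degrades proteins that carry ubiquitin. Its 20S core is a barrel of alpha and beta rings. The alpha subunits form the outer rings and the gate, and the beta subunits form the inner chamber, where Psmb6 carries the caspase-like, Psmb7 the trypsin-like and Psmb5 the chymotrypsin-like activity. In immune cells and under interferon, these are replaced by Psmb9, Psmb10 and Psmb8, respectively, to give the immunoproteasome, whose products are well suited to presentation on MHC class I. The 19S regulatory particle caps the core, with an ATPase ring (Psmc genes) that unfolds substrates and a set of non-ATPase subunits (most Psmd genes) that bind and trim ubiquitin. Other Psm genes encode assembly chaperones (Psmg1 to Psmg4, Psmd5, Psmd9 and Psmd10), activators that open the core (the PA28 genes Psme1, Psme2, Psme2b and Psme3, and the PA200 gene Psme4) and an inhibitor (Psmf1). By these roles the 50 genes fell into 8 core alpha, 8 core beta, 3 immunoproteasome, 6 regulatory particle ATPase, 11 regulatory particle non-ATPase, 7 assembly and 6 activator or inhibitor genes, and Psmc3ip, a meiotic recombination factor that shares only the start of the name.

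Promoter windows of constitutive (Psmb5, Psmb6) and inducible (Psmb8, Psmb9) catalytic genes are shown because the results turn on the difference between these kinds. The windows are from RefSeq on GRCm38.p6, run from 250 bases before to 50 bases after the start RefSeq gives, and are written 5′ to 3′ on the strand of the gene. Capitals mark a match to a motif that was searched, TGACNNNGC (the antioxidant response element core, bound by factors of the Nfe2l1 family) in Psmb5 and Psmb6, TTCNNNGAA (the interferon gamma activated site) in Psmb8, and CCAAT (the NF-Y box, on the opposite strand) in Psmb9.
Psmb5 (chr14:54617946-54618245, minus strand): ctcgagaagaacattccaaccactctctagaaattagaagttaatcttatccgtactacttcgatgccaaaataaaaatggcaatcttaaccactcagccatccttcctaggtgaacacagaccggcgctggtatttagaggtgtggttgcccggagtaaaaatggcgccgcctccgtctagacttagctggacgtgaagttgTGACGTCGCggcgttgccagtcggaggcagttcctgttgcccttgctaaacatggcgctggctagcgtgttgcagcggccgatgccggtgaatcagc
Psmb6 (chr11:70525107-70525406, plus strand): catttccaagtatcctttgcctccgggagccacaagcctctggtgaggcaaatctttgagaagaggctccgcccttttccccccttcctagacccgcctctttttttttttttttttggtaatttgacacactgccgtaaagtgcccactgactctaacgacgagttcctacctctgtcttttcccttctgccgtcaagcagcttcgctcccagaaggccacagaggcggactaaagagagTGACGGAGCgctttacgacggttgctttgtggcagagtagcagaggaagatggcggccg
Psmb8 (chr17:34197945-34198244, plus strand): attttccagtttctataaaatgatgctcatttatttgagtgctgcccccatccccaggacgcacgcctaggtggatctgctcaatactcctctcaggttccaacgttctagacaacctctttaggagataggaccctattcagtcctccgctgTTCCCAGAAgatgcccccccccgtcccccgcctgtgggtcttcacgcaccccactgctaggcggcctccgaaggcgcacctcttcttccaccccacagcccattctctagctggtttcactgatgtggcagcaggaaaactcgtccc
Psmb9 (chr17:34187281-34187580, minus strand): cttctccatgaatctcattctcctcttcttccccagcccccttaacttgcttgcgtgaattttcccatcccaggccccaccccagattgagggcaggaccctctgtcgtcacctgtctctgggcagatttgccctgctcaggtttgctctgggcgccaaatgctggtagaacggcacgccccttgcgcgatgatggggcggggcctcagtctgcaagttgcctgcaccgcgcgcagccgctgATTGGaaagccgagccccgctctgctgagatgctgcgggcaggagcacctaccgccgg
The windows of Psmb8 and Psmb9 lie wholly inside the ranges that the deposited table gives these genes, which start further upstream, so other starts of these genes are not covered.

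Of the 50 genes, 42 had a RefSeq window, among them Psmb10, in which none of the motifs was found. The constitutive catalytic gene Psmb7 had no window. Both strands were searched. TGACNNNGC was found in 6 of these 42 genes (14.3%) and in 14% of all 27025 genes with a window. The interferon stimulated response element core, GAAA and GAAA with any 2 bases between, was in 5 of 42 (11.9%) against 3.99% of all genes, and none of the 3 immunoproteasome genes had it. CCAAT was in 15 of 42 (35.7%) against 41.1%, and TTCNNNGAA in 3 of 42 (7.14%) against 9.55%. By class, 5 of 7 core alpha genes with a window had CCAAT, and 2 of 5 core beta genes, Psmb5 and Psmb6, had TGACNNNGC. These were high shares, as CCAAT was in 1 of 6 assembly and 1 of 6 activator or inhibitor genes. TGACNNNGC was in 0 of 7 core alpha genes.

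RNA abundance was given as FPKM, which scales the fragments of a gene by its length and by the size of the library, and differences were taken on log2(FPKM + 1), so that they slightly understate changes of low genes. The libraries held 17571544 to 19894562 reads on genes, and 3 reads on a gene of 1 kb corresponded to 0.151 to 0.17 FPKM. Correlations of log2 values were 0.991 to 0.993 within and 0.974 to 0.977 between groups. Myh9, the gene of the non-muscle myosin IIA heavy chain (chr15:77760587-77842175, minus strand), stood at 23, 22.6 and 22 FPKM in CTRL and 18.4, 19.965 and 17.7 FPKM in cKO libraries. All cKO libraries were below all CTRL libraries (log2 fold change -0.26, adjusted p = 0.00642). Most of the measured gene lies outside the floxed exon 1, so this value is a limited check of the deletion. The share of LSK cells that had lost the exon was not measured in these data. In total, 11552 genes reached a mean of 1 FPKM and were tested, and their median log2 fold change was -0.0096.

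Most constitutive proteasome genes were more abundant in Myh9-deficient LSKs, by small amounts. Of the 50 genes, 49 passed the filter on low values, 35 were higher in cKO at an adjusted p under 0.05, 1 was lower and 13 were not called. Over all genes tested, 19.9% were higher and 20.6% lower. All cKO libraries lay above all CTRL libraries for 37 of the 49 genes, against 25.5% of all genes tested, and below them for 2 genes, against 28.5%. The log2 fold change was positive for 46 of 49 genes, with a median of 0.20, and 18.9% of all genes tested had a value at or above that median. No proteasome gene differed by more than 2-fold, a threshold that 2.13% of all genes passed together with an unadjusted p under 0.05.

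Proteasome genes are abundant, and called genes are more frequent among abundant genes. Among the genes that reached a mean of 10 FPKM, the share of higher genes was 30.6% and that of lower genes 23%, and their median log2 fold change was 0.028. At this level there were 45 proteasome genes, of which 33 were higher and 0 lower by limma (at an unadjusted p under 0.05, 1 was lower, Psmb10, and with voom on the recovered reads 0). The constitutive core and regulatory particle, 31 genes without Psma8 and Psmb11, held 28 that were higher and 3 that were not called. Their summed level was 2430 to 2504 FPKM in CTRL and 2904 to 2932 FPKM in cKO libraries, with no overlap and a difference of the means of 18.8%. The median log2 fold change of the 31 genes was 0.22.

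**Figure D1:**
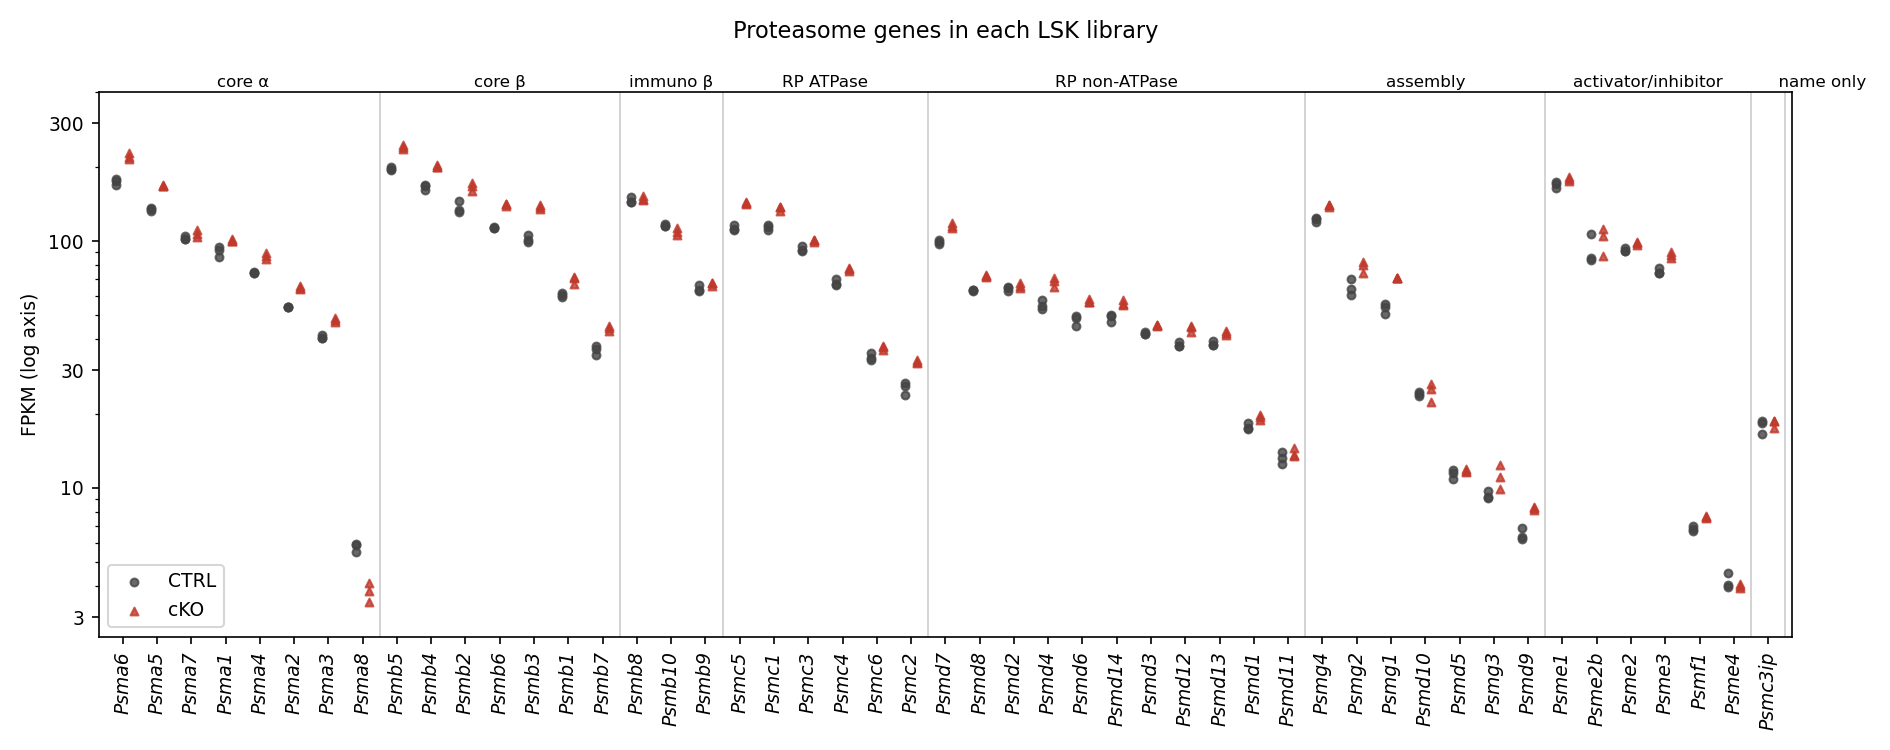
Level of each of the 49 tested proteasome genes in every library, in FPKM on a log axis, by class (RP, regulatory particle). Gray circles are CTRL and red triangles cKO libraries, 3 each. For most core, RP and assembly genes the cKO libraries sit above the CTRL libraries, while the immunoproteasome genes nearly coincide and Psma8 is lower.

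In the outer rings of the core, 6 of 8 alpha genes were higher, 1 was lower and 1 was not called. Psma6 stood at 175, 169 and 179 FPKM in CTRL and 219, 215 and 227 FPKM in cKO libraries, a log2 fold change of 0.34 (SE 0.032, adjusted p = 0.000386). Psma5 was at 136, 132 and 135 FPKM in CTRL and 166, 168 and 167 FPKM in cKO (log2 fold change 0.31, adjusted p = 0.000146). For Psma2, CTRL libraries held 53.9, 54 and 54 FPKM and cKO libraries 64, 65.9 and 64.4 FPKM (log2 fold change 0.26, adjusted p = 0.000386). The groups did not overlap for any of these 3 structural subunits. With GC and length trends removed the log2 fold changes of Psma6 and Psma5 were 0.22 and 0.21, and both remained called. Psma1, Psma3 and Psma4 were higher by 0.15 to 0.22 on the log2 scale. The exception among the constitutive alpha genes was Psma7, named for this reason after its values were seen, at 102, 102 and 105 FPKM in CTRL and 111, 104 and 107 FPKM in cKO. Its groups overlapped and it was not called (log2 fold change 0.062, adjusted p = 0.172).

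Psma8, which encodes the alternative alpha subunit of the testis proteasome in place of Psma7, was the single proteasome gene that was lower. It was found at 5.94, 5.87 and 5.51 FPKM in CTRL and 3.82, 4.11 and 3.46 FPKM in cKO libraries, from 109 to 200 reads each, far above the 3 reads taken as a floor. All cKO libraries were below all CTRL libraries (log2 fold change -0.50, SE 0.064, adjusted p = 0.0014). None of its transcript sequence was shared with another gene over 50 bases. Its level per length was 0.0562 ± 0.00314 (SD, n = 3) of that of Psma7 in CTRL and 0.0354 ± 0.00376 in cKO.

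All 7 tested beta genes of the constitutive core were higher, each with no overlap between groups. Psmb3, a structural subunit, had the largest rise of all 49 genes in the main test, from 101, 98.7 and 106 FPKM in CTRL to 139.6, 138 and 135 FPKM in cKO (log2 fold change 0.43, SE 0.033, adjusted p = 0.000183). With the length trend removed, Psmc2 (0.394) and Psmd9 (0.387) were above Psmb3 (0.382). Psmb5 was the most abundant proteasome gene in both groups, at 196 ± 3.40 FPKM (SD, n = 3) in CTRL and 240.5 ± 4.92 FPKM in cKO. The other beta genes of this group, Psmb1, Psmb2 and Psmb4 among them, had log2 fold changes of 0.20 to 0.30, and that of Psmb2 was 0.16 with GC and length trends removed (adjusted p = 0.0288). Psmb11, the beta subunit of the thymus proteasome, did not pass the filter and was at 0, 0.0355 and 0 FPKM in CTRL and 0.0111, 0 and 0.0112 FPKM in cKO. It lies 3410 bases from Psmb5 on chromosome 14, so genes at one site stood at opposite ends of the range of levels.

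The catalytic genes of the core behaved differently by kind. The 3 constitutive ones were higher in cKO and the 3 inducible ones were not called. Psmb5 read 195, 193 and 199.9 FPKM in CTRL and 236, 246 and 239 FPKM in cKO libraries (log2 fold change 0.29, adjusted p = 0.000305). Psmb6 read 113, 113 and 114 FPKM in CTRL and 138, 141 and 141 FPKM in cKO (log2 fold change 0.30, adjusted p = 0.000131). Psmb7 read 36.7, 34.6 and 37.6 FPKM in CTRL and 44.3, 45.2 and 43.1 FPKM in cKO (log2 fold change 0.28, adjusted p = 0.00205). For each of them every cKO library was above every CTRL library. With the trend of each library with gene length removed, the log2 fold change of Psmb5, which has a short gene model, was 0.17 (adjusted p = 0.0032), while that of Psmb8 was 0.0053.

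The immunoproteasome genes were well expressed in LSK cells of both groups. Psmb8 was at 144, 144 and 150.1 FPKM in CTRL and 152, 147 and 148 FPKM in cKO, and the groups overlapped (log2 fold change 0.026, SE 0.028, adjusted p = 0.493). Psmb9 was at 62.7, 63.4 and 66.5 FPKM in CTRL and 65.7, 67.5 and 67.4 FPKM in cKO, also with overlap (log2 fold change 0.058, SE 0.031, adjusted p = 0.183). Psmb10 was at 117, 115 and 115 FPKM in CTRL and 113, 109 and 106 FPKM in cKO, with all cKO libraries below all CTRL libraries (log2 fold change -0.083, SE 0.029, adjusted p = 0.0596). Thus none of the 3 passed the threshold by limma (the unadjusted p of Psmb10 was 0.0253), and Psmb10 was on the lower side in all 18 alternative settings and passed the threshold in 6 of them. Psmb9 passed it, as higher, in 1 of 18, and Psmb8 in none, with log2 fold changes of -0.0024 to 0.046. The summed level of the 3 genes was 322 to 332 FPKM in CTRL and 322 to 330 FPKM in cKO libraries.

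The inducible share of the catalytic genes was lower in Myh9-deficient LSKs. The ratio of Psmb8 to Psmb5 was 0.741, 0.743 and 0.751 in CTRL and 0.642, 0.596 and 0.619 in cKO libraries, and its mean fell by 16.9%. Psmb9 over Psmb6 was 0.554, 0.563 and 0.586 in CTRL and 0.476, 0.479 and 0.477 in cKO, and its mean fell by 15.8%. Psmb10 over Psmb7 was 3.20, 3.32 and 3.06 in CTRL and 2.54, 2.41 and 2.46 in cKO, and its mean fell by 22.5%. For each ratio all cKO libraries were below all CTRL libraries, which in a two-sided exact permutation test of 3 against 3 libraries gives the smallest p it allows, 0.1. The size of the falls depends on gene length. With the length trend removed, log2 fold changes were 0.0053 for Psmb8 and 0.17 for Psmb5, and 0.077 for Psmb9 and 0.24 for Psmb6. Those of Psmb10 and Psmb7 were -0.16 and 0.29. The gaps of the Psmb8 and Psmb9 pairs were thus smaller than in the main test, and that of the Psmb10 pair was larger. Of the summed FPKM of the 6 catalytic genes, the inducible genes made up 48.6% ± 0.0625 (SD, n = 3) in CTRL and 43.3% ± 0.669 in cKO. These ratios compare levels per length, where the length of most genes is that of all exons of all isoforms. For Psmb8 the length used was 2736 bases, against 3381 for all its exons in GENCODE M21. They are RNA ratios within a library and not the subunit ratios of the particle.

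**Figure D2:**
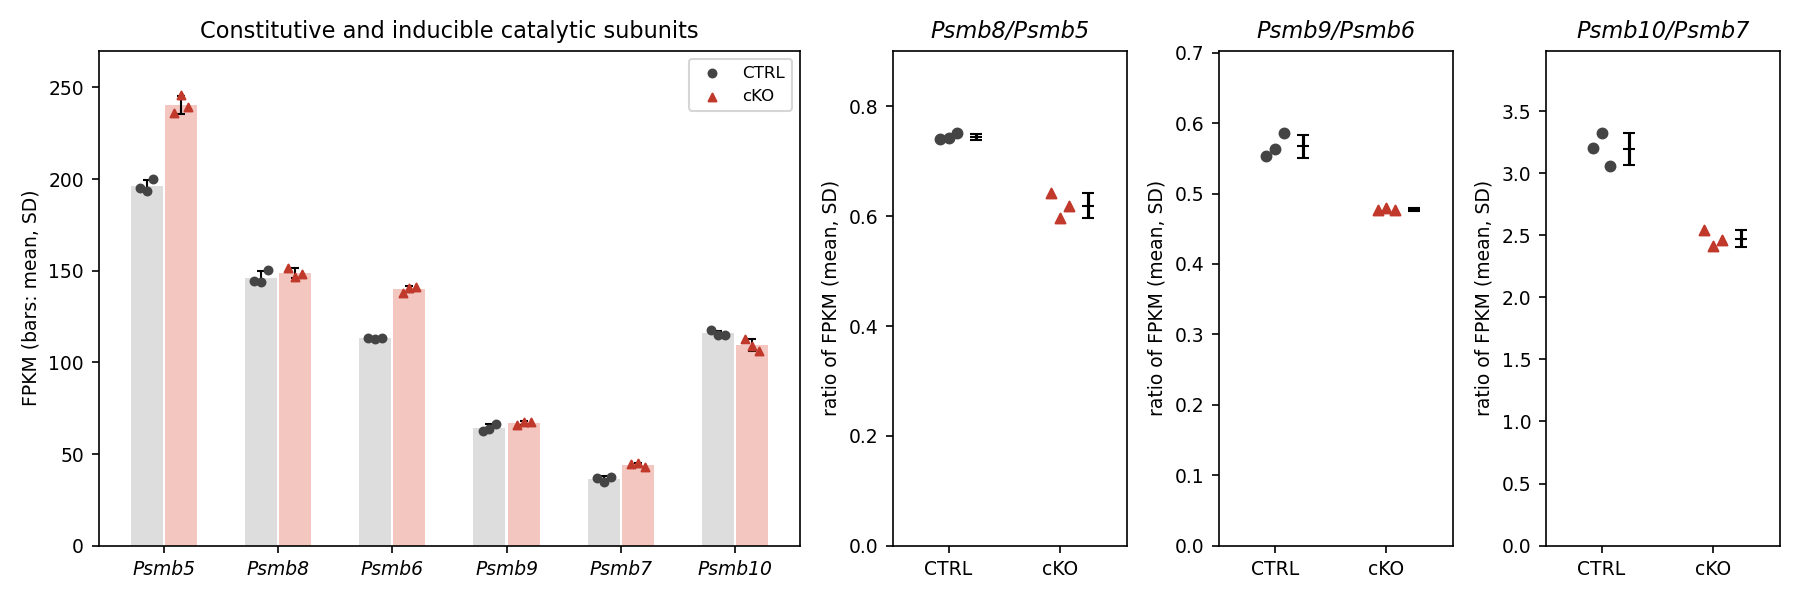
Levels of the constitutive (Psmb5, Psmb6, Psmb7) and inducible (Psmb8, Psmb9, Psmb10) catalytic genes in FPKM, with bars for the mean and SD of 3 libraries and points for libraries, and the ratio of each inducible gene to the constitutive gene it replaces. The cKO libraries lie above CTRL for the constitutive genes and below CTRL in all 3 ratios, which fell by 16.9%, 15.8% and 22.5%.

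In the 19S regulatory particle, 15 of 17 genes were higher and 2 were not called. All 6 ATPase genes were higher, with log2 fold changes of 0.11 to 0.35. Psmc5 was at 112, 111 and 116 FPKM in CTRL and 141, 142 and 144 FPKM in cKO libraries (log2 fold change 0.33, adjusted p = 0.000183). Psmc2 was at 23.7, 26.5 and 25.8 FPKM in CTRL and 31.9, 32.4 and 32.9 FPKM in cKO (log2 fold change 0.35, adjusted p = 0.00152). Psmc1 was at 114, 111 and 116 FPKM in CTRL and 138, 132 and 137 FPKM in cKO (log2 fold change 0.26, adjusted p = 0.00092). The groups of all 6 ATPase genes were apart, but Psmc3 and Psmc6 had the smallest differences, 0.11 and 0.12, and each lost its call in 8 of 18 alternative settings. Psmc5 and Psmc4 had log2 fold changes of 0.22 and 0.11 at the lowest of these settings, with the call kept.

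Of the 11 non-ATPase genes, 9 were higher, with a median log2 fold change of 0.19 over the 11. Psmd4, a ubiquitin receptor, was at 53, 54.7 and 57.7 FPKM in CTRL and 70.6, 65.3 and 68.8 FPKM in cKO libraries (log2 fold change 0.30, adjusted p = 0.00206). Psmd6, a lid subunit, was at 49.8, 45.2 and 49 FPKM in CTRL and 58.4, 56.6 and 56.4 FPKM in cKO (log2 fold change 0.25, adjusted p = 0.00412). Psmd7, the lid partner of the deubiquitinase, was at 99.4, 97 and 101 FPKM in CTRL and 113, 118 and 115 FPKM in cKO (log2 fold change 0.22, adjusted p = 0.00139). These 3 genes had the largest differences of the class, and their groups did not overlap. Psmd14, the deubiquitinase of the lid, was at 48.9 ± 1.82 FPKM (SD, n = 3) in CTRL and 56.2 ± 1.15 FPKM in cKO (log2 fold change 0.20, adjusted p = 0.00532). The genes that were not called were Psmd2, a scaffold of the base, and Psmd11, a lid subunit, which with Psmd12 and Psmd14 were named after their values were seen. Psmd2 stood at 65.2, 63 and 64.3 FPKM in CTRL and 64.5, 67.4 and 65.9 FPKM in cKO (log2 fold change 0.038, adjusted p = 0.327). Psmd11 stood at 13.2, 12.5 and 14 FPKM in CTRL and 13.6, 13.5 and 14.5 FPKM in cKO (log2 fold change 0.065, adjusted p = 0.347), and both overlapped between groups. Psmd1, the other scaffold of the base, was called at an adjusted p of 0.0468 and lost that call in 11 of 18 alternative settings.

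**Figure D3:**
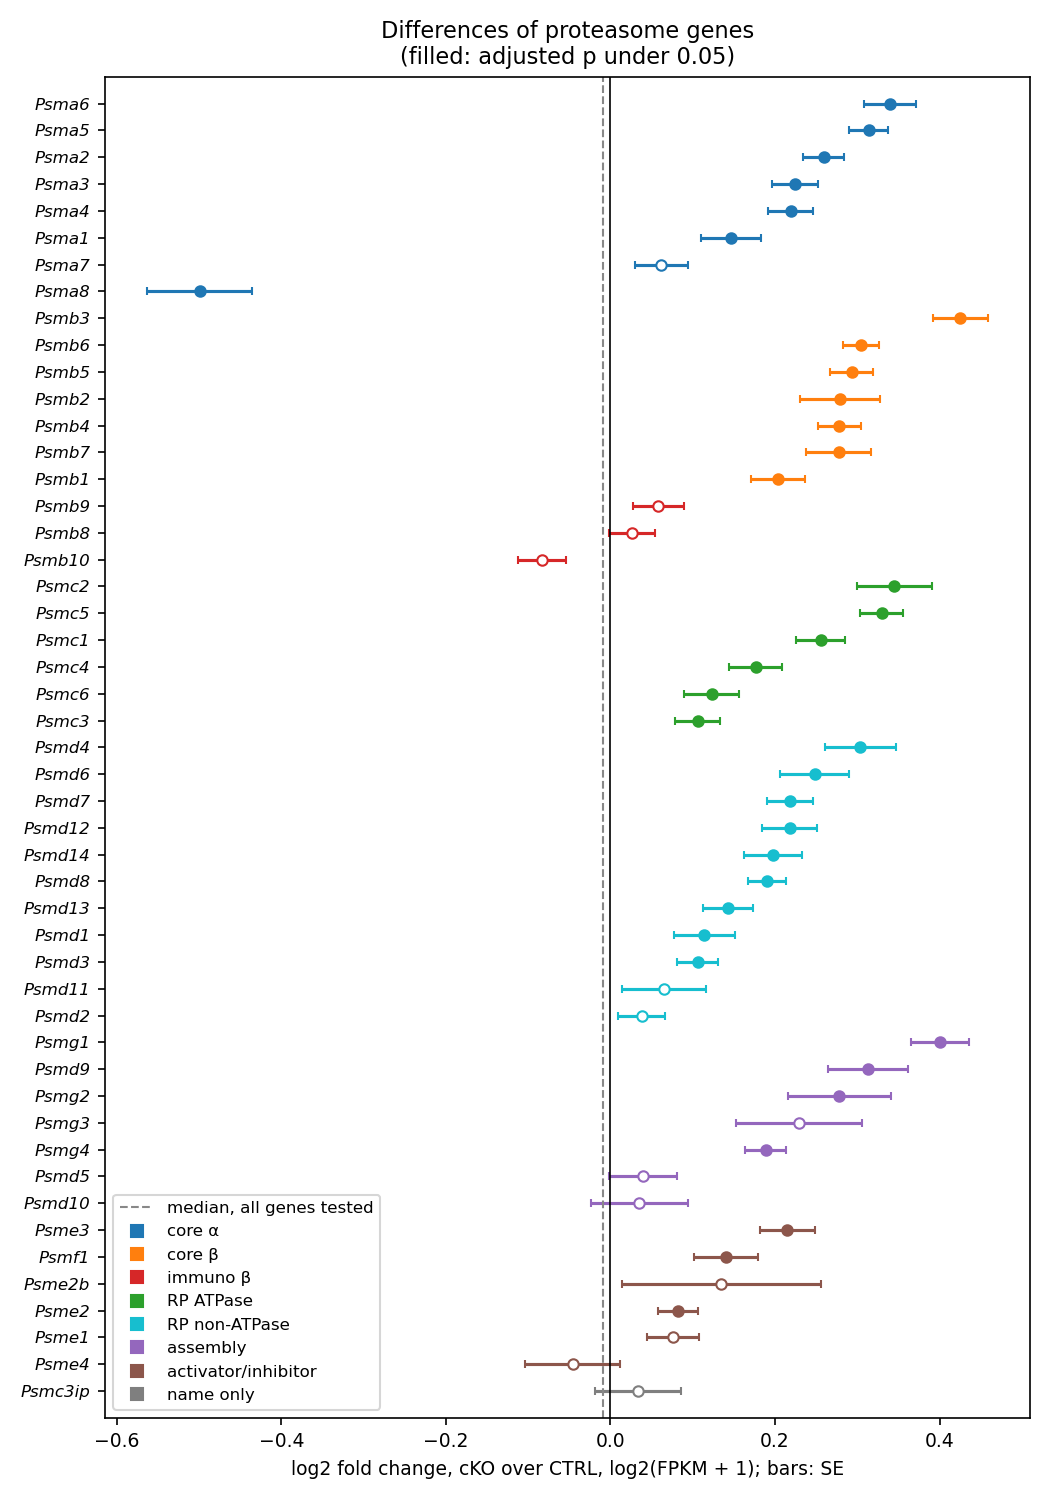
Log2 fold change of cKO over CTRL for each of the 49 tested proteasome genes, by class, with bars for the SE from limma, filled circles for genes with an adjusted p under 0.05, and a dashed line at the median of all genes tested (-0.0096). Values reach from -0.50 for Psma8 to 0.43 for Psmb3, and the 3 immunoproteasome genes lie close to 0, from -0.083 to 0.058.

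Among assembly factors, 4 of 7 genes were higher and 3 were not called. Psmg1, of the chaperone pair that starts the alpha ring, was at 55.4, 50.8 and 54.1 FPKM in CTRL and 70.7, 70.7 and 71.1 FPKM in cKO libraries (log2 fold change 0.40, SE 0.036, adjusted p = 0.000314). Its partner Psmg2 was at 64, 60.2 and 70.4 FPKM in CTRL and 82.1, 74.5 and 79.7 FPKM in cKO (log2 fold change 0.28, adjusted p = 0.0132). Psmd9, a chaperone of the ATPase ring, was at 6.20, 6.31 and 6.89 FPKM in CTRL and 8.29, 8.11 and 8.40 FPKM in cKO (log2 fold change 0.31, adjusted p = 0.0029). The groups of these 3 genes were apart, but Psmg2 lost its call in 3 of 18 alternative settings, and its log2 fold change was 0.16 with GC and length trends removed (adjusted p = 0.072). Psmg4 was also higher (log2 fold change 0.19, adjusted p = 0.0016), but its gene model holds only 555 bases, and with the trend of each library with gene length removed its log2 fold change was 0.0032 (adjusted p = 0.939). Psmg3 had all cKO libraries above CTRL without passing the threshold (9.09, 9.18 and 9.74 FPKM in CTRL, 11.1, 12.4 and 9.94 FPKM in cKO, adjusted p = 0.0512). The other ATPase ring chaperones, Psmd5 and Psmd10, had log2 fold changes of 0.039 and 0.035 with overlapping groups. Psmg3, Psmg4, Psmd5 and Psmd10 were named after their values were seen.

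The activators differed among themselves. The nuclear activator Psme3 was higher, at 74.3, 78.1 and 74 FPKM in CTRL and 90.002, 88.1 and 85.2 FPKM in cKO libraries (log2 fold change 0.22, adjusted p = 0.00311). The interferon-inducible PA28 genes Psme1 and Psme2, which lie 5911 bases apart on chromosome 14, differed less. Psme1 was at 163, 170.4 and 174 FPKM in CTRL and 182, 179 and 175 FPKM in cKO, apart but not called (log2 fold change 0.076, adjusted p = 0.0962). Psme2 was at 91.5, 93.5 and 91.5 FPKM in CTRL and 97.9, 98.7 and 96.2 FPKM in cKO and was called (log2 fold change 0.082, adjusted p = 0.033), but it lost its call in 11 of 18 alternative settings. Their ratio overlapped between groups, at 1.84 ± 0.0584 (SD, n = 3) in CTRL and 1.83 ± 0.0255 in cKO. Psme4 had the lowest mean of the tested genes, at 4.52, 3.96 and 4.03 FPKM in CTRL and 3.92, 4 and 4.09 FPKM in cKO, with overlap (log2 fold change -0.046, adjusted p = 0.564). The inhibitor Psmf1 was at 6.68, 6.80 and 7.05 FPKM in CTRL and 7.72, 7.57 and 7.65 FPKM in cKO (log2 fold change 0.14, adjusted p = 0.027) and lost its call in 6 of 18 alternative settings. Psmc3ip, the gene matched by name only, was at 16.6, 18.4 and 18.6 FPKM in CTRL and 18.6, 18.7 and 17.6 FPKM in cKO and overlapped (log2 fold change 0.034, adjusted p = 0.639), and without it the median of the other genes was 0.20.

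Some of these values could be shared with near-identical copies, since the counting of reads that fit several genes is not given in the sources used here. Of the 50 genes, 28 shared no stretch of 50 bases with transcripts of another gene, and 4 shared more than 50% of such stretches. Psme2 shared 59.3% with Psme2b, which stood at 83.8, 85.5 and 107 FPKM in CTRL and 105, 87.2 and 112 FPKM in cKO libraries with the widest spread of all 49 genes (adjusted p = 0.415), so values of both are uncertain. Psmb5 shared 57.1%, with Gm3375 as the closest copy at 7.63 to 11.6 FPKM. Psma5 shared 54.5%, with Gm8394 as the closest at 9.83 to 14.5 FPKM. For Psma3 the share was 22%, but the copy Gm13835 was listed at 117 to 142 FPKM, above Psma3 itself at 41.6, 40.6 and 40.4 FPKM in CTRL and 48.8, 47.1 and 48 FPKM in cKO. In contrast, the inducible genes Psmb8, Psmb9 and Psmb10 and the constitutive Psmb7 shared none, and Psmb6 shared 1.75%. The pseudogenes named for Psmb5, Psmb6 and Psmb7, 4 in all, held 0 to 2 reads in each library. Strand was not kept by the kit as far as stated, and Psmb9 overlaps Tap1 on the opposite strand over 5.79% of its exon bases, while Psmb7 overlaps Nek6 over 11.8%.

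The constitutive subunits are present in equal numbers in the particle, but their RNA levels per length were not equal. In the core the 14 constitutive genes ranged from 36.3 FPKM (Psmb7) to 196 FPKM (Psmb5) in CTRL, a ratio of 5.40, and from 44.2 to 240.5 FPKM in cKO, a ratio of 5.44. In the regulatory particle the 17 genes ranged from 13.2 FPKM (Psmd11) to 114 FPKM (Psmc1) in CTRL and from 13.9 (Psmd11) to 142 FPKM (Psmc5) in cKO. The order of the 31 genes was nearly the same in both groups, with a Spearman correlation of mean levels of 0.990, given as a description over genes that share the same libraries. The log2 fold change of the 48 tested genes other than Psmc3ip was weakly related to their level (Spearman 0.290, Pearson 0.429) and to gene length (Spearman -0.281, Pearson -0.173) over the same 6 libraries. Median log2 fold changes by class were 0.28 for core beta, 0.23 for assembly, 0.22 for core alpha, 0.22 for ATPase, 0.19 for non-ATPase, 0.11 for activator or inhibitor and 0.026 for immunoproteasome genes, and these differences between classes were not tested. With the length trend removed the activator or inhibitor median was 0.032. The immunoproteasome median was 0.012 at the lowest when 1 library was left out, and it turned to -0.0024 with GC and length trends removed and to -0.0052 from summed FPKM.

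**Figure D4:**
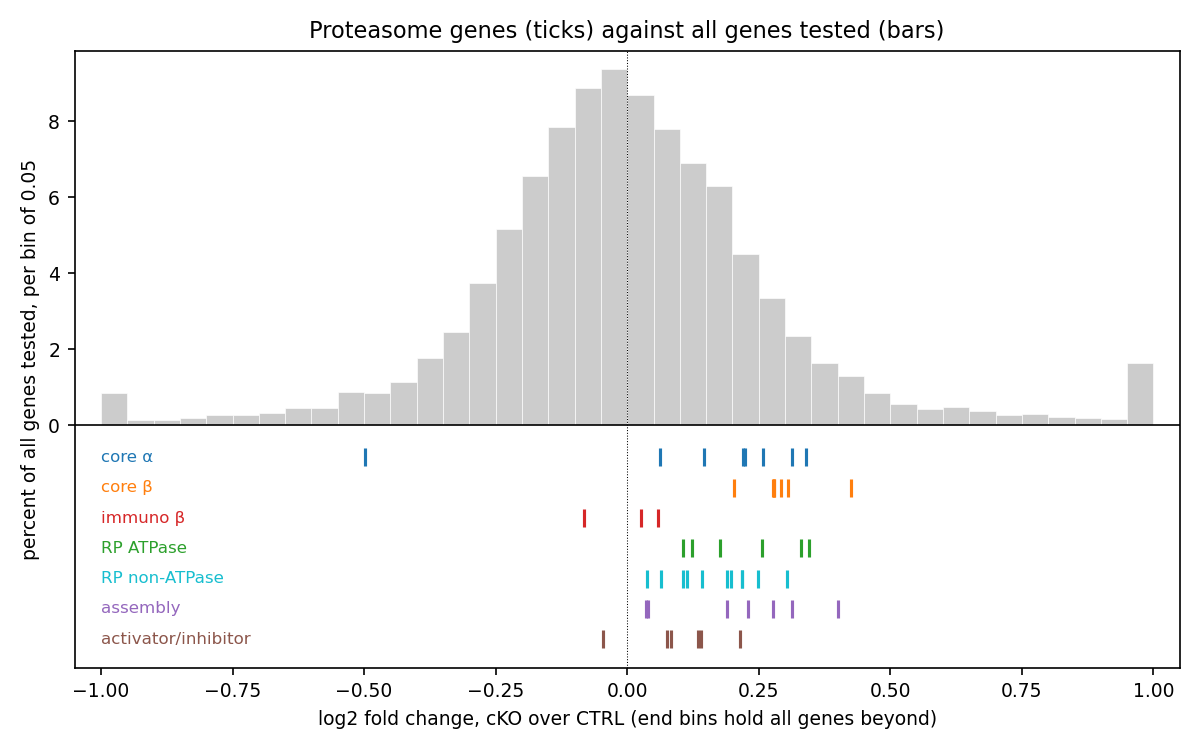
Log2 fold changes of all 11552 genes tested (bars, percent of genes per bin of 0.05, with values beyond the ends in the end bins) and of the tested proteasome genes by class (ticks below). Core, RP and assembly genes lie mostly right of the middle of the bars, within their shoulder rather than their tail.

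Of 34 listed ubiquitin-proteasome partners, which work with the proteasome, 30 were found and tested. Of these, 6 were higher and 7 lower (median log2 fold change 0.025), close to the shares of all genes tested, 19.9% and 20.6%. Among the 6 higher ones, Adrm1, the ubiquitin receptor of the regulatory particle that lacks a Psm symbol, was at 30.6, 31.2 and 29.9 FPKM in CTRL and 37.2, 37.9 and 36.7 FPKM in cKO libraries (log2 fold change 0.28, adjusted p = 0.000635). The deubiquitinases that dock on the particle, Usp14 (log2 fold change 0.28) and Uchl5 (0.22), were also higher. Those lower included the stress-inducible Zfand2a (log2 fold change -0.42, adjusted p = 0.00765), the shuttle factor Ubqln2 (-0.41) and Zfand5 (-0.29), each with all cKO libraries below CTRL. Pomp, the maturation factor of the core, was at 31.6, 31.9 and 34.2 FPKM in CTRL and 34.9, 33.6 and 35.5 FPKM in cKO and was not called (adjusted p = 0.124), and Sem1, the smallest subunit of the regulatory particle, differed by -0.067 on the log2 scale (adjusted p = 0.22).

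Nfe2l1, the transcription factor that raises proteasome genes when proteasome activity is limiting, was at 17.5, 17.5 and 16.8 FPKM in CTRL and 14.7, 14.3 and 14.2 FPKM in cKO libraries. It was lower in cKO with no overlap (log2 fold change -0.24, SE 0.034, adjusted p = 0.00196), while 28 of 31 constitutive genes were higher. This factor is known to be controlled at the level of its protein, which was not measured here.

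Genes of antigen processing, with which the immunoproteasome works, were mostly lower. Of 12 listed and tested, 10 were lower and 1 was higher (median log2 fold change -0.19), where 20.6% of all genes tested and 23% of those that reached 10 FPKM were lower. Without the filter on low values, 7 were lower and 1 was higher, where 1971 of 24337 genes tested were lower. Psmb8 and Psmb9 lie in the MHC region of chromosome 17 with Tap1 between them, 9956 bases apart, and Tap2 lies 2072 bases beyond Psmb8. Tap2, a subunit of the peptide transporter, was the gene that was higher, at 37.5, 39.5 and 37.1 FPKM in CTRL and 45.7, 47.9 and 44.9 FPKM in cKO (log2 fold change 0.27, adjusted p = 0.00197). Its partner Tap1 was lower, at 48.6, 48 and 48.4 FPKM in CTRL and 45.1, 44.9 and 46.1 FPKM in cKO (log2 fold change -0.091, adjusted p = 0.0273). Of these 4 neighboring genes, 1 was higher, 1 was lower and 2 were not called. Irf1, a transcription factor of the immunoproteasome genes, was at 22, 23.4 and 20.8 FPKM in CTRL and 15, 15.3 and 15.4 FPKM in cKO (log2 fold change -0.50, adjusted p = 0.000376). It was lower with no overlap, as were the chaperones of MHC class I loading Calr (log2 fold change -0.34) and Pdia3 (-0.32).

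Interferon stimulated genes were measured because poly I:C induces interferon and the immunoproteasome genes respond to it. Of 16 listed genes, 13 were tested, 0 were higher, all 13 having negative values, and 5 were lower by limma, and 7 had all cKO libraries below all CTRL libraries (median log2 fold change -0.16). Over all genes tested these shares were 20.6% and 28.5%. Ifit3, which was below the filter, had all cKO libraries above CTRL (0.807, 0.293 and 0.597 FPKM in CTRL, 0.979, 1.16 and 1.08 FPKM in cKO). The lower ones were Ifi44 (log2 fold change -0.57), Oas1a (-0.38), Oasl2 (-0.28), Irf7 (-0.16) and Bst2 (-0.15, named after its values were seen). Psmb8, Psmb9, Psmb10, Psme1 and Psme2 are also inducible by interferon, and their log2 fold changes lay between -0.083 and 0.082. The part of the interferon response in the values of these genes was not tested.

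**Figure D5:**
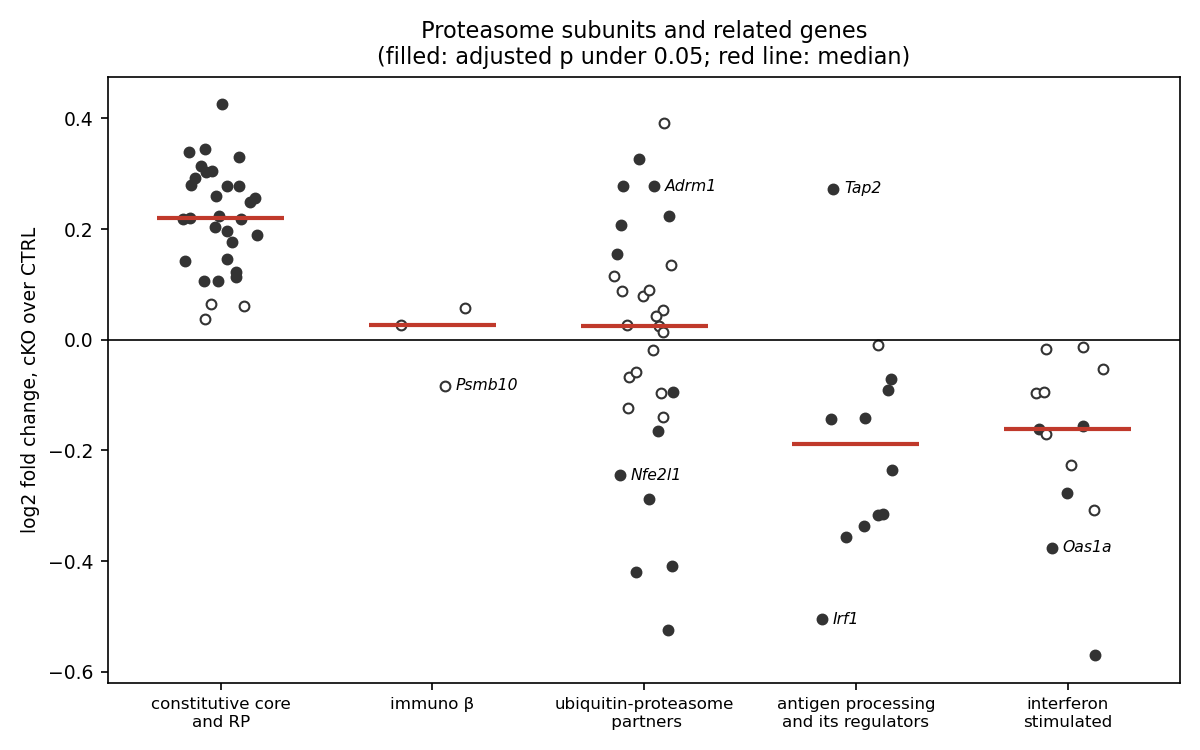
Log2 fold change of cKO over CTRL for the 31 constitutive core and RP genes, the 3 immunoproteasome genes, 30 ubiquitin-proteasome partners, 12 genes of antigen processing and 13 interferon stimulated genes. Filled circles have an adjusted p under 0.05 and red lines are medians, at 0.22, 0.026, 0.025, -0.19 and -0.16.

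Marker genes of other cell types differed between groups, and their part in the proteasome values was not tested. All 8 erythroid markers were higher in cKO, with a summed level of 420 to 425 FPKM in CTRL and 754 to 780 FPKM in cKO. Of 5 megakaryocyte markers, 3 were tested and all were higher (summed 56.2 to 59.9 FPKM in CTRL and 124 to 129 FPKM in cKO), and Gp1bb was at 0 in every library. Of 7 neutrophil and monocyte markers, 6 were lower (summed 8968 to 9028 FPKM in CTRL and 4623 to 4697 FPKM in cKO), and of 5 mast cell and basophil markers 4 were higher (89.8 to 102 FPKM and 147 to 157 FPKM). T and NK markers (4 of 6 tested) gave 3 higher (Ccl5, Gzmb and Trbc2) and 1 lower, Nkg7, which at 353 ± 4.87 FPKM (SD, n = 3) in CTRL and 279.6 ± 2.97 FPKM in cKO carried most of the sum (366 to 377 FPKM and 336 to 339 FPKM). B and plasma cell markers (5 of 6 tested) gave 3 higher and 2 lower, and the largest part of the sum (138 to 140.1 FPKM and 132 to 139 FPKM) in CTRL was Ighm, a lower gene at 100.2 ± 0.634 FPKM in CTRL and 59 ± 0.987 FPKM in cKO. Of 6 stem and progenitor markers, 5 were tested and 3 were higher, Procr and Hlf of stem cells and Flt3, which together with Cd34 (not called) marks progenitors rather than long-term stem cells and with it made up most of the summed level (91.3 to 92.7 FPKM and 106 to 110.5 FPKM). Of the genes of the sort, Kit was lower (log2 fold change -0.14) and Ly6a, which encodes Sca1, differed by -0.092 on the log2 scale (adjusted p = 0.0833), and among genes of the lineage gate, Cd3e was at 0 in all CTRL libraries and Cd8a at 0 in all cKO libraries. In these bulk samples a change in RNA per cell and a change in the number of cells of a type cannot be told apart.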

How the data were processed

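RNA-seq of sorted LSK cells was analysed, with 3 CTRL and 3 cKO libraries grouped by the labels. The authors deposited FPKM values and gene lengths for each library. The submitters' processing notes name HISAT2 2.0.5 and mm10, and the counting program, its treatment of shared reads and the annotation are not given in the sources used here. Multiplied by gene length, 100% of the FPKM values of a library were whole multiples of a single step (within 0.01), which gives reads per gene. These set the depth, the floor of 3 reads and an alternative test (voom). Intervals from reads would cover counting error only. Gene lengths equalled the union of exons in GENCODE M21 for 46 of the 50 genes, so levels of genes with many isoforms are understated. The genes whose lengths differed were Psma8, Psmb8, Psmb9 and Psmg2.

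The test was limma (version 3.58.1 in R 4.3.3), with moderation by a mean-dependent trend, on log2(FPKM + 1) of the 11552 genes that averaged 1 FPKM or more. It was two-sided, p values were adjusted by Benjamini-Hochberg over these genes, and the threshold was 0.05. Adjusted p values in the text are from this test. On simulated counts it called 15.2% of genes given a 1.2-fold change, 93.8% at 2-fold and 0.0616% of unchanged genes. The simulation assumed a spread between replicates and changed few genes, so these shares need not hold for the real libraries. A gene that was not called may still differ by a small amount. Alternatives were other pseudocounts, filters, scalings, moderation, trend removal, voom, a replicate block and leaving out each library. The background of genes of at least 10 FPKM was chosen after seeing the data. Members and lists were chosen with earlier results of these data known.

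Genes named were Myh9, the catalytic, activator and unusual genes (Psma8, Psmb11, Psmc3ip), up to 3 largest called rises and falls of each class, the highest and lowest gene, up to 4 called genes in each direction of a related list, and Pomp, Adrm1, Sem1 and Nfe2l1. Others were named after their values were seen, marker and copy genes included. Some genes of the related lists are not reported here by name. Promoter windows are RefSeq, GRCm38.p6. Python 3.11.15 with pandas 2.3.3, numpy 2.4.6 and matplotlib 3.10.9 was used.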

Additional observations from a re-analysis of the deposited data

How the results depend on the processing

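Of the 35 higher proteasome genes, 26 were called under all 18 alternative settings, 9 lost the call at least once and none had a negative log2 fold change in any. Of the 13 genes not called, 5 were called at least once. Higher and lower genes numbered 31 and 2 with quantile normalization, 31 and 2 with TPM, 31 and 2 with the length trend removed, and 32 and 2 with GC and length trends removed, the second lower gene being Psmb10. The counts were 39 and 1 with voom, 36 and 1 with the median of ratios, and 36 and 1 with a filter at 5 FPKM (Psmb10, as Psma8 was filtered out). When a change over 2-fold and a raw p under 0.05 were asked for, higher and lower genes numbered 0 and 0. Median log2 fold changes over all proteasome genes, core alpha, core beta, ATPase and non-ATPase genes were 0.16, 0.18, 0.24, 0.17 and 0.15 with quantile normalization (activator or inhibitor 0.079), 0.18, 0.20, 0.26, 0.19 and 0.17 with TPM, 0.22, 0.25, 0.30, 0.24 and 0.21 with voom (assembly 0.27), 0.17, 0.20, 0.24, 0.16 and 0.18 with the length trend removed (activator or inhibitor 0.032, assembly 0.17), and 0.17, 0.19, 0.22, 0.17 and 0.17 with GC and length trends removed (activator or inhibitor 0.041, assembly 0.16). The non-ATPase median was 0.20 with the median of ratios. From summed FPKM, core alpha was 0.24 and core beta 0.30. The immunoproteasome value changed sign, to -0.0024 with GC and length trends removed and -0.0052 from summed FPKM. The causes of these shifts were not tested.

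Leaving out 1 library at a time gave 29 to 33 higher and 1 to 2 lower genes, and medians of 0.18 to 0.22 over all, 0.074 to 0.13 for activator or inhibitor, 0.18 to 0.27 for assembly, 0.21 to 0.24 for core alpha, 0.28 to 0.31 for core beta, 0.012 to 0.046 for immunoproteasome, 0.20 to 0.24 for ATPase and 0.17 to 0.19 for non-ATPase genes. The percent change of the ratios was -18.5 to -15.4 for Psmb8/Psmb5, -16.8 to -14.4 for Psmb9/Psmb6 and -24.1 to -21.0 for Psmb10/Psmb7. The ratios were not recomputed with the length trend removed. In that setting the log2 fold changes of the Psmb8 and Psmb9 pairs lay closer together and those of the Psmb10 pair further apart. Same-numbered libraries did not deviate together (correlations of -0.0046, -0.011 and -0.026). With 3 libraries per group this cannot show whether samples were paired, for example by litter, which the labels do not state. With a replicate block 31 genes were higher and 1 lower. Depth limits Psmb11, which had 0 to 3 reads in each library.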
